A study of Mus musculus with 8 samples.

Results

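Vim, Cdh2, Fn1, Tnc, Cd44, S100a4, Srgn, Lox and Loxl2 are effector genes of the mesenchymal cell state, and they were chosen by name, with earlier results of these data known. They are 9 of the 21938 protein-coding genes annotated in the mouse genome build mm10 (GENCODE M21). The readout was ChIP-seq, in which chromatin is pulled down with an antibody and its DNA is sequenced, for H3K27ac, the acetylated form of lysine 27 of histone H3 that marks promoters and enhancers in use. For each gene, the deposited peaks were collected over a window that held the gene body and 50 kb on either side. Both groups were Balb/c breast tumors that arose in female mice with PyMT, the polyoma middle T oncogene, under the MMTV promoter, a viral promoter active in mammary epithelium. All mice were Rag1KO, so they made no T or B cells of their own, and all received wild-type CD4+ T cells by injection at 4 weeks of age. Control tumors came from PyMT;Rag1KO mice with no further transgene (n = 2). Test tumors came from K14-TSLPtg;PyMT;Rag1KO mice (n = 2), in which the keratin 14 promoter drives thymic stromal lymphopoietin (TSLP), a cytokine that activates CD4+ T cells, in basal epithelium. Tumors were taken at terminal size, so they need not match in age, and the word tumor stands in the titles of the control samples and the word cyst in those of the test samples. The 4 input samples were not analysed here.

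In an epithelial-to-mesenchymal transition (EMT), epithelial cells loosen their junctions, rebuild their cytoskeleton and matrix, and become motile. The transition is driven by transcription factors of the SNAI, TWIST and ZEB families, often downstream of TGF-beta, and it is known in breast carcinoma for its association with invasion and poor differentiation. The effector genes carry out the new state: a cytoskeletal filament (Vim), an adhesion molecule (Cdh2), matrix proteins (Fn1, Tnc), a matrix receptor (Cd44), a calcium-binding protein of motile cells (S100a4), a proteoglycan of secretory granules (Srgn) and the matrix cross-linking oxidases (Lox, Loxl2). Most of them are also expressed by fibroblasts, endothelial cells or leukocytes. The tumors were profiled as bulk tissue, in which fewer cells of a type and less acetylation per cell cannot be told apart.

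Each list held between 59762 and 69861 peaks that covered 64.3 to 73.1 Mb, and the lower ends of both ranges belonged to test 2. A peak list gives positions and widths with no score, and the read depth behind it is unknown. Peak presence and width therefore mix acetylation with sequencing depth. With 2 tumors against 2, the exact permutation test (two-sided) cannot give a p below 0.333, so no difference between the groups could pass a threshold of 0.05 in this test. The spread between the tumors of a group was used as the measure of error, and it may include technical variation.

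Acetylated chromatin around Vim and Srgn covered more bases in both control tumors than in either test tumor. Around Cdh2 the order was the opposite, by a margin of a few bases, and around the other 6 genes the groups overlapped. Among all 18693 protein-coding genes with any peak in their window, 13.0% were higher in both control tumors and 17.3% were higher in both test tumors. The 9 windows together held 70.3 and 67.6 kb of peaks in controls, against 58.1 and 57.9 kb in test tumors, a difference of -10.9 kb. It was -6.41 kb with bases in other protein-coding genes left out and -3.92 kb with peaks at least 1 kb wide. The median difference in the share of the window covered was -0.200 percentage points over the 9 genes and 0.0192 percentage points over all genes with coverage. Peaks that belong to neighbouring genes count in these windows too and are described for each gene.

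**Figure D1:**
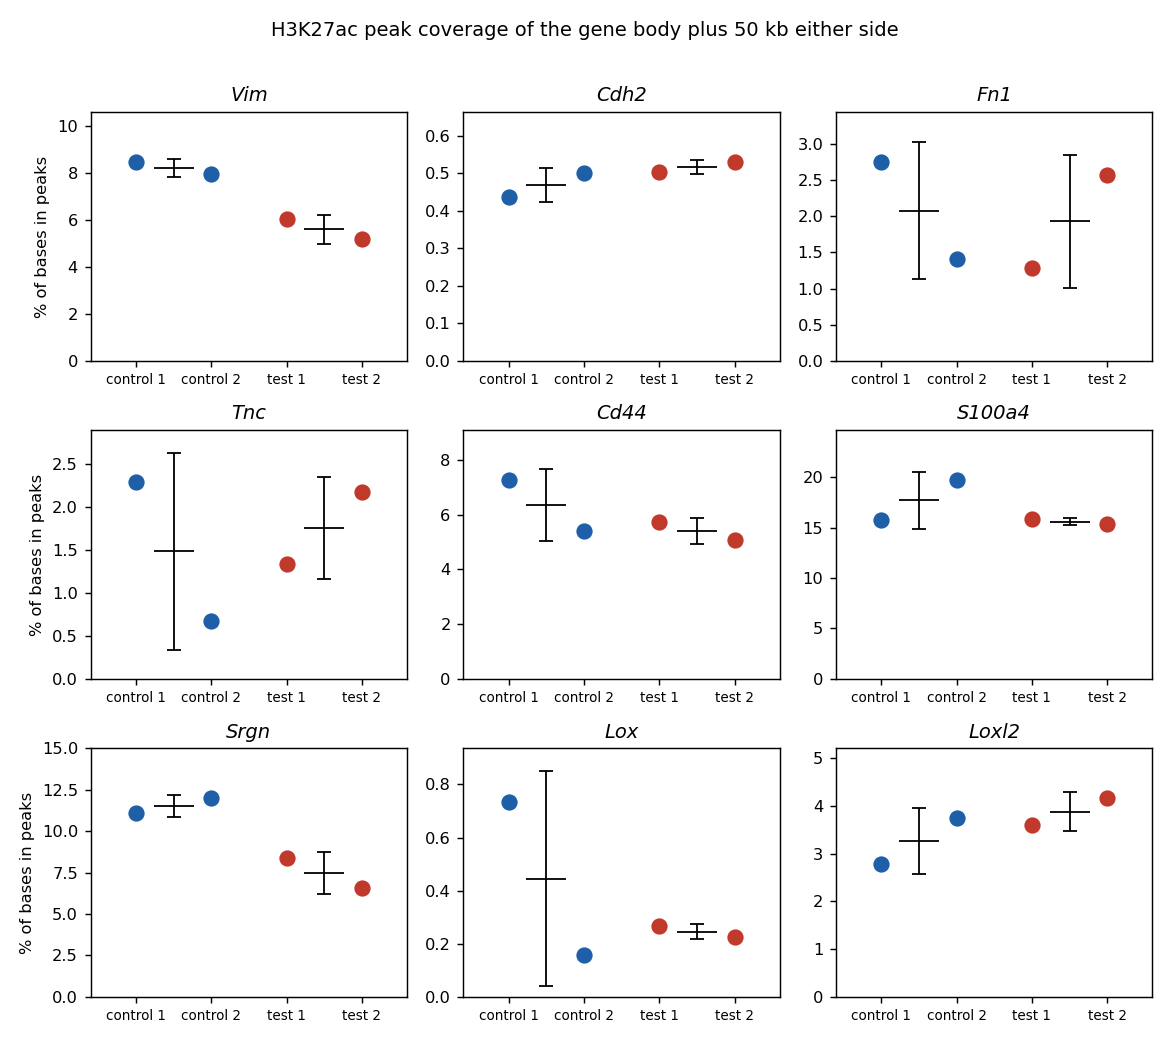
Share of each gene's window (gene body plus 50 kb on either side) that lay in H3K27ac peaks, in percent, for each of the 9 genes. Points are single tumors, blue for control and red for test, and black bars give the group mean with the SD (n = 2, drawn no lower than 0); the control points lie above both test points for Vim and Srgn, and the test points lie above both control points for Cdh2 with the nearest pair at 0.500% and 0.504%.

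Across the 4 lists, the 9 windows held 108 separate peak regions, each a union of overlapping peaks. Of these, 32 (29.6%) had a peak in all 4 tumors, against 38.1% of the 91238 regions of the genome. Regions found in both control lists but in no test list, called control-only here, numbered 9 of 108 (8.33%), and control-only regions were 3.41% of all regions. The count was 3 with equal peak numbers in each tumor, 0 with peaks at least 1 kb wide and between 12 and 28 leaving out 1 tumor, the highest without control 2. They lay in the windows of 5 of the 9 genes (Vim, Fn1, Tnc, Cd44 and Srgn), where 22.3% of all genes with coverage had such a region. The opposite pattern, test-only, was found once (0.926% of the 108, against 1.47% of all regions), in the window of Tnc, and 12.2% of all genes with coverage had a test-only region. The windows of these genes were long (median 167.7 kb against 120.2 kb over all genes with coverage) and held more regions (median 12 against 9), so there were more regions in which either kind could occur. The control-only regions were narrow, from 176 to 743 bp, and 4 of the 9 had, in at least 1 control tumor, the smallest width found anywhere in that tumor's list. Only 4 of the 9 lay in the listed gene or within 1 kb of its start, and 4 lay inside the body of another protein-coding gene.

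The sequences of 3 of the wider regions of these kinds outside untranslated sequence are shown to give the DNA that differed in peak calls. Each is the central 300 bases of its region on the plus strand, read from the mouse reference (GRCm38.p6, the same assembly as mm10, strain C57BL/6J), and the Balb/c tumors may carry other bases. The first lay at chr2:13538779-13539078, 35.0 kb upstream of Vim in the body of Trdmt1. The second lay at chr10:62553147-62553446, 25.8 kb upstream of Srgn in the body of Kif1bp, and 72.3% of its bases are marked as repeats in the reference. The last, the only test-only region, lay at chr4:63982574-63982873 over an exon of Tnc. Capitals mark a match to 1 of 5 motifs on either strand: AP-1 (TGANTCA), TEAD (GGAATG), the SNAI/ZEB E-box (CACCTG), RUNX (TGTGGT) and the ETS family (GGAAGT).
Vim upstream region, control-only: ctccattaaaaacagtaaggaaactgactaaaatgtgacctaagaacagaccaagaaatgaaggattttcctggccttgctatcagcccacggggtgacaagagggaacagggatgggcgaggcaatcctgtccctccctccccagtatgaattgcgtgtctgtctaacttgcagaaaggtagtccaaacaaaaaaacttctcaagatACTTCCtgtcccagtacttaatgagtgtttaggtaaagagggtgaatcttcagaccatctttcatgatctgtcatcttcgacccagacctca
Srgn upstream region, control-only: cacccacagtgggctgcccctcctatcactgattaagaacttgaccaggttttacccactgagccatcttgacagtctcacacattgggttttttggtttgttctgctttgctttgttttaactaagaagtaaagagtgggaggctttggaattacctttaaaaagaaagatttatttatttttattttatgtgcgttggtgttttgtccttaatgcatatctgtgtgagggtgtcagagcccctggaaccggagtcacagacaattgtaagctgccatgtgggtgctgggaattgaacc
Tnc exon region, test-only: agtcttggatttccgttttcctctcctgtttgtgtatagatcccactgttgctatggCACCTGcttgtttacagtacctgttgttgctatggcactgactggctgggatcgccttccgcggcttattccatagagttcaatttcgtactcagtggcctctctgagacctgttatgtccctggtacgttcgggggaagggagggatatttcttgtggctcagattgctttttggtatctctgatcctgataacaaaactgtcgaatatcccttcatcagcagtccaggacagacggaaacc

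The Vim sequence held 1 ETS match, read on the minus strand, and the Tnc sequence held 1 E-box match. The Srgn sequence held none of the 5 motifs. Regions at least 300 bp wide numbered 74 in the 9 windows and 62930 in the genome. In their central 300 bases, AP-1 matched in 12 of 74 (16.2%, against 10.7% of all), TEAD in 10 (13.5% against 16.7%), the E-box in 17 (23.0% against 21.2%), RUNX in 16 (21.6% against 20.03%) and ETS in 10 (13.5% against 22.4%). Of the 8 control-only regions of this width, 1 held TEAD, 1 held ETS and none held the other 3 motifs. These counts describe letters in a window and say nothing on binding.

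Vim encodes vimentin, the intermediate filament of mesenchymal cells, and lies at chr2:13573927-13582826 on the plus strand. Peaks covered 8.46% and 7.92% of its window in the control tumors (mean 8.19% ± 0.375, SD, n = 2) and 6.01% and 5.16% in the test tumors (5.58% ± 0.608, SD, n = 2). The difference was -2.61 percentage points (exact permutation p = 0.333, the smallest possible), and each pair of a test and a control tumor differed by between -3.30 and -1.91 points. The groups did not overlap. Most of this came from upstream of the gene. The broad domain over the Vim start was present in all 4 tumors, at 4528, 4744, 4106 and 3873 bp in control 1, control 2, test 1 and test 2. Both control tumors carried a wider domain, and in the test tumors it was split into separate peaks.
Upstream, a region 16.2 kb from the start held 1893 and 805 bp in the control tumors, 627 bp in test 1 and none in test 2. Both control-only regions of this window lay further out, at 35.9 kb (408 and 158 bp) and 35.0 kb (164 and 718 bp). They are inside Trdmt1, a tRNA methyltransferase gene whose own start region, 29.6 kb upstream of Vim, was also wider in both control tumors (1913 and 2205 bp against 1817 and 1741 bp). With bases in and near other protein-coding genes left out, the Vim difference was -2.10 points.

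Srgn encodes serglycin, the core protein of granule proteoglycans, best known from haematopoietic cells, and lies at chr10:62493833-62527451 on the minus strand. Its window was covered at 11.1% and 12.0% in the control tumors (mean 11.5% ± 0.655, SD, n = 2) and at 8.36% and 6.58% in the test tumors (7.47% ± 1.26, SD, n = 2). The difference of -4.08 percentage points was the widest among the 9 genes, again without overlap of the groups (exact permutation p = 0.333). No tumor had a peak within 1 kb of the outermost annotated 5′ end. The acetylated domain lay over the inner transcript starts, 20.4 kb into the annotated gene body, where it spanned 5068 and 5005 bp in the control tumors against 3543 and 2848 bp in the test tumors.
Upstream of Srgn, inside Kif1bp, a gene for a kinesin-binding protein, several small regions were fuller in the control tumors. At 14.8 kb the 4 tumors held 703, 916, 0 and 177 bp, and at 16.4 kb they held 1190, 1482, 449 and 0 bp. The widest region of this stretch, at 19.2 kb, overlapped between the groups (1000, 1636, 1557 and 987 bp). Control-only regions followed at 22.1 kb (212 and 254 bp) and 25.8 kb (278 and 459 bp). The start regions of the neighbours Supv3l1 and Vps26a showed no such order: at Vps26a the covered length was 1524 bp in control 1 and 2159 bp in control 2, against 2365 bp in test 1 and 2100 bp in test 2. With other protein-coding genes left out, the Srgn difference was -5.26 points. When only peaks at least 1 kb wide were kept, the Srgn groups overlapped.

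**Figure D2:**
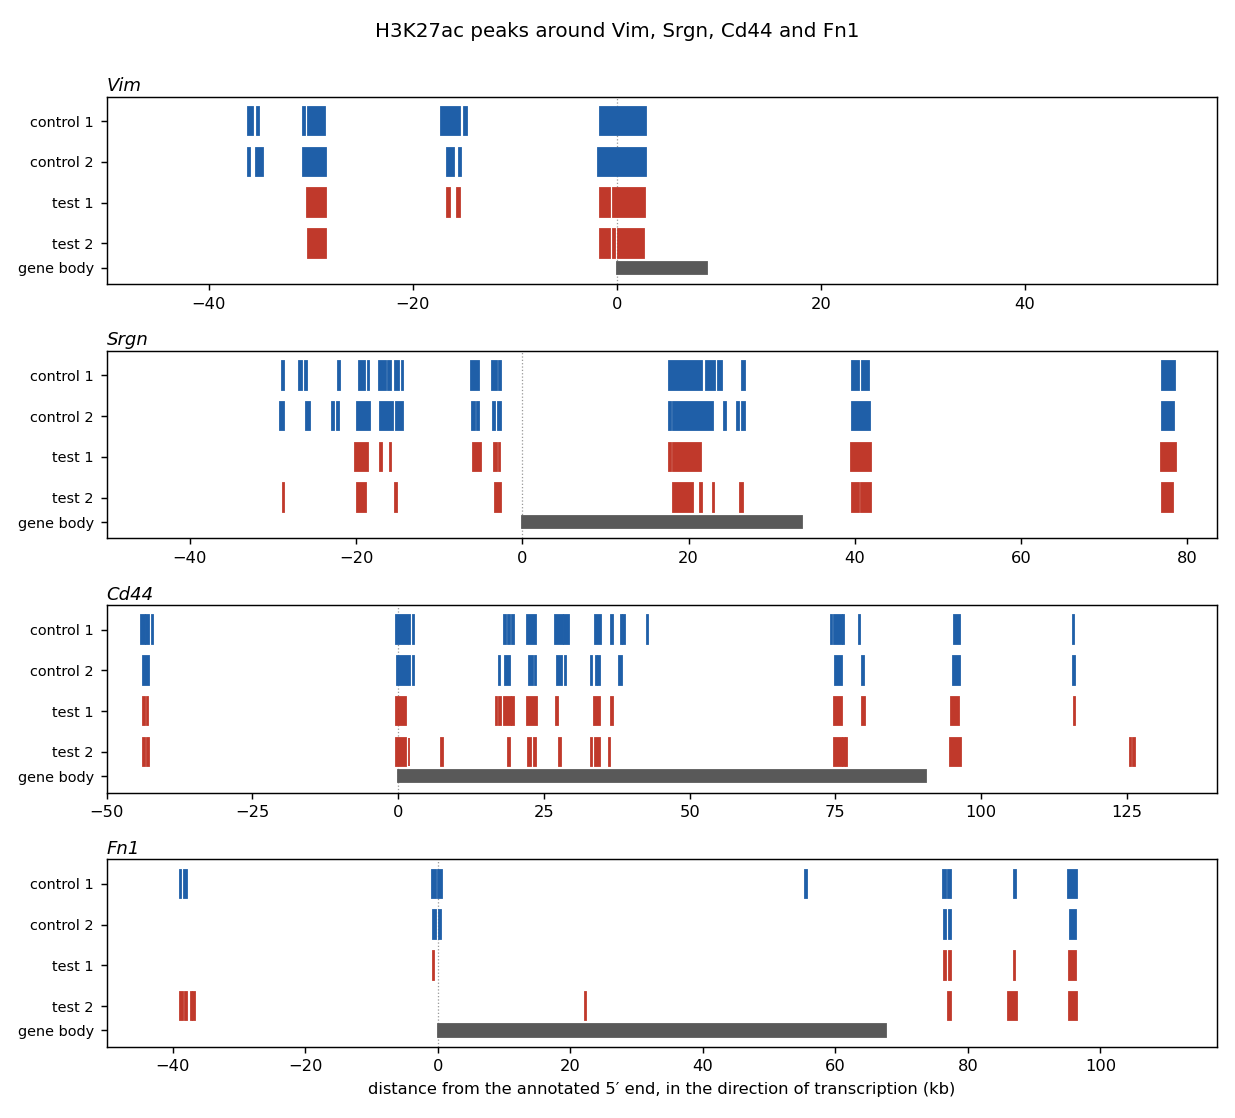
Deposited H3K27ac peaks in the windows of Vim, Srgn, Cd44 and Fn1, by distance in kb from the annotated 5′ end in the direction of transcription, with 1 track per tumor (blue control, red test) and the gene body in grey; peaks narrower than the drawn outline appear at its width. The domain at the Vim start is present in all tumors, the Srgn domain lies about 20.4 kb inside the annotated gene, and the peak just inside the Fn1 start is in the control tracks alone.

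Cd44 encodes a hyaluronan receptor of motile cells and leukocytes and lies at chr2:102811141-102901665 on the minus strand. Over its whole window the groups overlapped, at 7.27% and 5.41% in the control tumors against 5.74% and 5.07% in the test tumors (difference -0.932 points, exact permutation p = 0.667; -0.00551 without control 1 and -1.86 without control 2). At the start both control tumors were higher: the start region held 2411 and 2234 bp in the control tumors against 1557 and 1853 bp in the test tumors. Counted only within 1 kb of the starts, Cd44 did not keep this order. An intronic region 27.6 kb inside the gene showed the steepest contrast among the 8 regions of the Cd44 window found in all 4 tumors, at 1336 and 934 bp against 221 and 340 bp. A region 43.4 kb upstream held 1203 and 1045 bp against 589 and 513 bp. Beside the intronic region, a control-only region held 743 bp in control 1 and 173 bp in control 2.
The other control-only regions of Cd44, 38.1 kb and 2.67 kb inside the gene, were at the narrowest width the lists contain in at least 1 control tumor (155 and 525 bp, and 155 and 158 bp). In the opposite direction, a region at the far end of the gene, 75.4 kb inside it, held 1282 and 1129 bp in the control tumors and 1361 bp in each test tumor. Just past the gene's 3′ end, 95.6 kb from the start, 1119 and 1079 bp stood against 1408 and 1844 bp. The start and the 27.6 kb region were thus wider in control tumors, and these 2 distal regions, 1 inside the gene and 1 past it, were wider in test tumors.

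Fn1 encodes fibronectin, the adhesive matrix glycoprotein bound by integrins, and lies at chr1:71585520-71653200 on the minus strand. Its window coverage overlapped between the groups, at 2.75% and 1.41% in the control tumors against 1.28% and 2.58% in the test tumors (difference -0.151 points, exact permutation p = 0.667). The control-only region at chr1:71652641-71653131, just inside the start, held 491 and 381 bp in the control tumors and no peak in either test tumor. It also lies within the annotated gene Apol7d, and its sequence is not shown because it overlaps untranslated sequence. A region 0.577 kb upstream of the start held 628 and 520 bp in the control tumors, 210 bp in test 1 and none in test 2. Test 2 held more bases far from the start, with 1278 bp at 86.8 kb, inside the neighbouring gene Atic, where the other tumors held 230, 0 and 196 bp. With a flank of 10 kb, which leaves most of Atic outside, Fn1 was higher in both control tumors, by -1.24 points as test minus control.

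Near the starts, more of the listed genes were higher in both control tumors than by window. Within 2 kb of any annotated transcript start, a measure chosen after the window values had been seen, coverage was higher in both control tumors for 4 of the 8 genes with any coverage there (Vim, Fn1, Cd44 and Srgn) and in both test tumors for none. Over all 13684 genes with coverage near a start, 11.3% were higher in both control tumors and 21.3% in both test tumors. Fn1 had 1119 and 901 bp in the control tumors against 210 and 0 bp in the test tumors. Srgn had 3883 and 3798 bp against 3543 and 2615 bp. Vim had 4250 and 4428 bp against 3920 and 3739 bp. For Vim, Fn1 and Cd44 the gap between the groups exceeded the spread within each group, and for Srgn the test tumors differed from each other by more than test 1 differed from the controls. The median difference was -5.51 percentage points over the 8 covered members and 0.499 points over all covered genes. Within 1 kb of the starts only Vim and Fn1 kept the order. Fn1 lost it with peaks at least 1 kb wide, and Srgn lost it at the annotated 5′ end alone. Leaving out a tumor cannot remove any of the 4 genes, because each had both control tumors above both test tumors. Of 18 covered fibroblast, endothelial and myeloid markers, 9 were also higher in both control tumors near their starts, with values given beside those markers, and their part in this result was not tested.

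**Figure D3:**
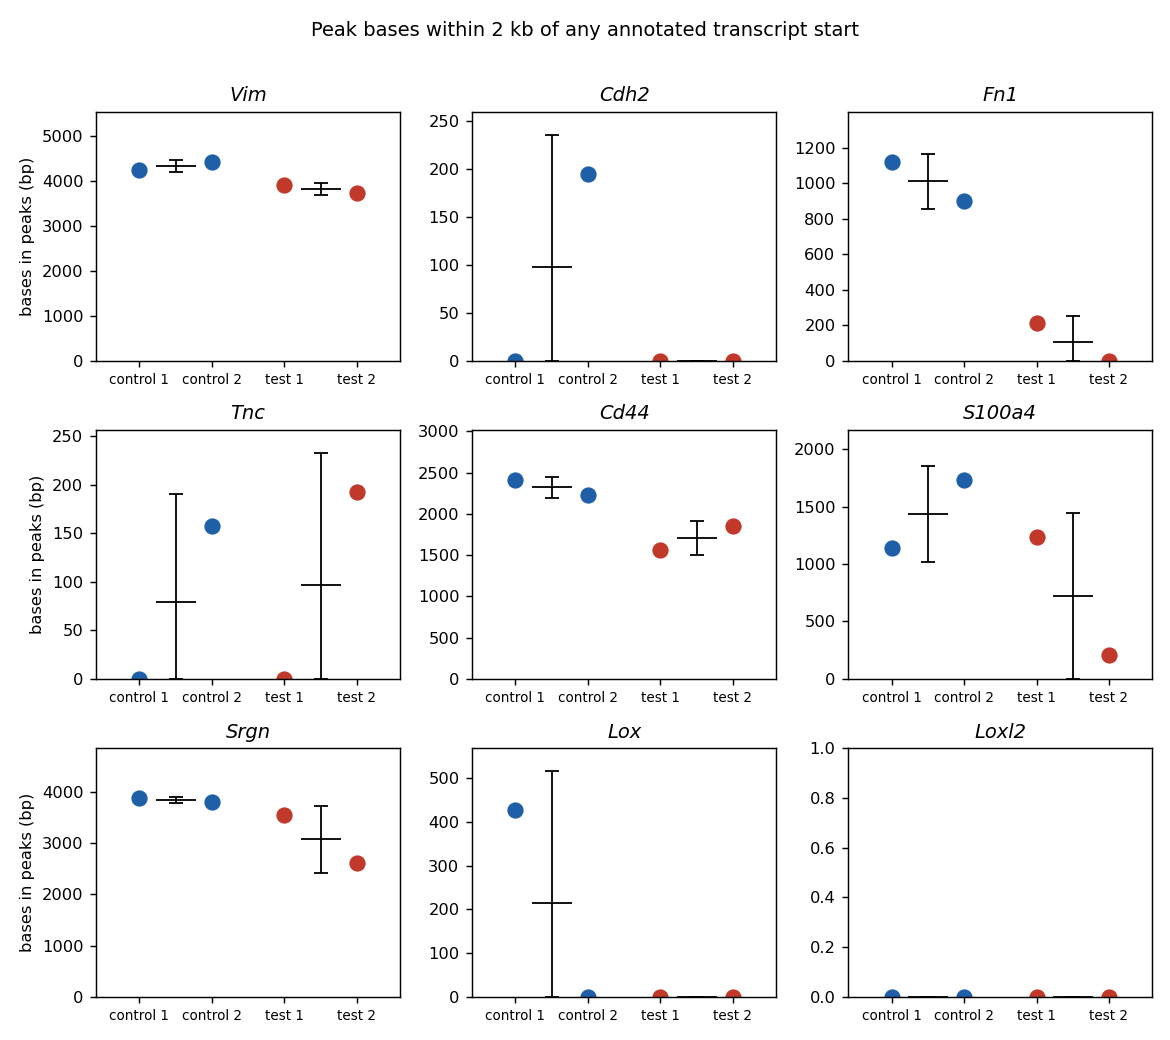
Bases in H3K27ac peaks within 2 kb of any annotated transcript start of each gene, in bp, with 1 point per tumor (blue control, red test) and black bars for the group mean with the SD (n = 2, drawn no lower than 0). Both control points lie above both test points for Vim, Fn1, Cd44 and Srgn, and Loxl2 is at 0 in all 4 tumors.

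A peak within 1 kb of the annotated 5′ end was present in all 4 tumors for 3 of the 9 genes (Vim, Cd44 and S100a4), against 49.6% of all protein-coding genes. When any annotated start was allowed, Srgn joined them. Among the 32 regions found in all 4 tumors, 11 (34.4%) held more bases in both control tumors, against 13.3% of such regions in the genome, and 6 (18.8%) held more in both test tumors, against 19.1%. Of those 11 regions, 5 lay at the start of another protein-coding gene (Trdmt1, S100a3 with S100a2, S100a6, Srfbp1 and R3hcc1), so they cannot be assigned to the listed genes. The remaining 6 were at the starts of Vim, Cd44 and Srgn, at the intronic and the upstream region of Cd44, and 28.9 kb upstream of S100a4, where the region lay inside S100a3 and the order rested on 606 bp in control 1 against 604 bp in test 2.

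The upstream promoters of Cd44 and S100a4 show how different the acetylated position was between these genes. Both are the 250 bases before a RefSeq start (GRCm38.p6), written in the direction of transcription, and the table held entries for 5 of the 9 genes. The Cd44 promoter at chr2:102901666-102901915, on the minus strand, lay in peaks over all 250 of its bases in every tumor. The S100a4 promoter at chr3:90603520-90603769, on the plus strand, lay in peaks over 0 bases in every tumor, and the S100a4 peaks began inside the gene. Neither held any of the 5 motifs named above, which match between 6.75% (AP-1) and 19.7% (ETS) of all 32851 promoters of this length.
Cd44 promoter: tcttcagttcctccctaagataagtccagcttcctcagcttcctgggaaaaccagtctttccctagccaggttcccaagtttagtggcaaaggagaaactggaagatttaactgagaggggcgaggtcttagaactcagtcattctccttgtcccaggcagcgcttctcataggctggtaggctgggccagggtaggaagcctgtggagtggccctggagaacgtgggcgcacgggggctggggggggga
S100a4 promoter: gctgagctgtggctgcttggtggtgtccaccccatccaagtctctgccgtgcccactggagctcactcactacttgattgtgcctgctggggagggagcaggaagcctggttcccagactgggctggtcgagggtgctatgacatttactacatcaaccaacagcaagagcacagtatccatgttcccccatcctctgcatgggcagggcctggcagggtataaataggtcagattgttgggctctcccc

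S100a4 encodes a small calcium-binding protein of motile and mesenchymal cells and sits at chr3:90603771-90606045 in a cluster of related S100 genes. Its window was the most densely covered of the 9, at 15.7% and 19.7% in the control tumors against 15.8% and 15.4% in the test tumors, with overlapping groups (difference -2.14 points, exact permutation p = 0.667; -4.14 without control 1 and -0.150 without control 2). The region over the gene itself held 1138, 1383 and 1231 bp in control 1, control 2 and test 1, and 204 bp in test 2. Test 1 lay between the control tumors, so the low value belonged to test 2 alone. Most of the cover lay at neighbours. The domain over the starts of S100a3 and S100a2, 17.2 kb upstream, held 6214 and 5624 bp in the control tumors against 4984 and 5245 bp in the test tumors. At S100a6, 10.4 kb downstream, 3552 and 3336 bp stood against 3009 and 2984 bp.

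Tnc encodes tenascin C, a matrix glycoprotein of wounds and tumor stroma, and lies at chr4:63959785-64047015 on the minus strand. Its window was sparse and irregular, at 2.30% and 0.672% in the control tumors against 1.34% and 2.17% in the test tumors (difference 0.270 points, exact permutation p = 1). Of its 16 regions, 1 was shared by all 4 tumors, and that one lay 130.1 kb from the start, beyond the gene. Near the start, control 2 had 158 bp and test 2 had 193 bp, and the other tumors had none. The test-only region over an exon 64.3 kb inside the gene spanned 1571 bp in test 2 but 166 bp in test 1, which is the smallest width in the list of test 1. The control-only region, just past the 3′ end and 87.8 kb from the start, held 155 and 289 bp, and 155 bp is the smallest width in the list of control 1.

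Loxl2 and Lox encode secreted lysyl oxidases that cross-link collagen and elastin. Loxl2 lies at chr14:69609068-69695834 on the plus strand and had no peak within 2 kb of a start in any tumor. Its window coverage of 2.78%, 3.75%, 3.59% and 4.16% in control 1, control 2, test 1 and test 2 overlapped between the groups (difference 0.612 points, exact permutation p = 0.667; 0.128 without control 1 and 1.096 without control 2). It came from a region over the last part of the gene (836, 1776, 981 and 1140 bp) and from regions at the neighbours R3hcc1 and Chmp7. A region 132.3 kb from the start held 377 and 1017 bp in the control tumors against 1395 and 2223 bp in the test tumors. Among the related oxidase genes, Loxl1 had 13.7% and 22.8% of the bases near its starts in peaks in the control tumors against 0.450% and 0% in the test tumors, but its window overlapped between the groups (10.96% and 12.9% against 10.5% and 12.3%). Loxl3 overlapped near its starts (24.9% and 37.6% against 23.95% and 27.5%), and Loxl4 had no start coverage in any tumor. Lox lies at chr18:52516067-52529867 on the minus strand and had peaks at its start in control 1 alone (428 bp in all). Its window was covered at 0.732%, 0.159%, 0.265% and 0.225% (difference -0.200 points, exact permutation p = 1), and the one region shared by all tumors was the edge of the start region of Srfbp1.

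Cdh2 encodes N-cadherin, the adhesion molecule that replaces E-cadherin in the classical transition, and lies at chr18:16588877-16809246 on the minus strand. Its window of 320.4 kb held 3 regions. A peak near the start was found in control 2 alone, at 195 bp. The one shared region lay in an intron 95.6 kb from the 5′ end and held 1400 and 1407 bp in the control tumors against 1616 and 1495 bp in the test tumors. The window stood at 0.437% and 0.500% in controls and at 0.504% and 0.530% in the test tumors (difference 0.0487 points, exact permutation p = 0.333). The difference was 0.0172 points without control 1 and 0.0802 points without control 2. The nearest pair, control 2 and test 1, held 1602 and 1616 bp, so the order of the groups rested on a gap far smaller than the narrowest peak in any list. Cdh1, the E-cadherin gene of the epithelial side, was covered by window at 28.8% and 26.9% against 29.2% and 26.5%, with overlapping groups, and near its starts at 72.8% and 72.0% against 73.5% and 74.7%.

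**Figure D4:**
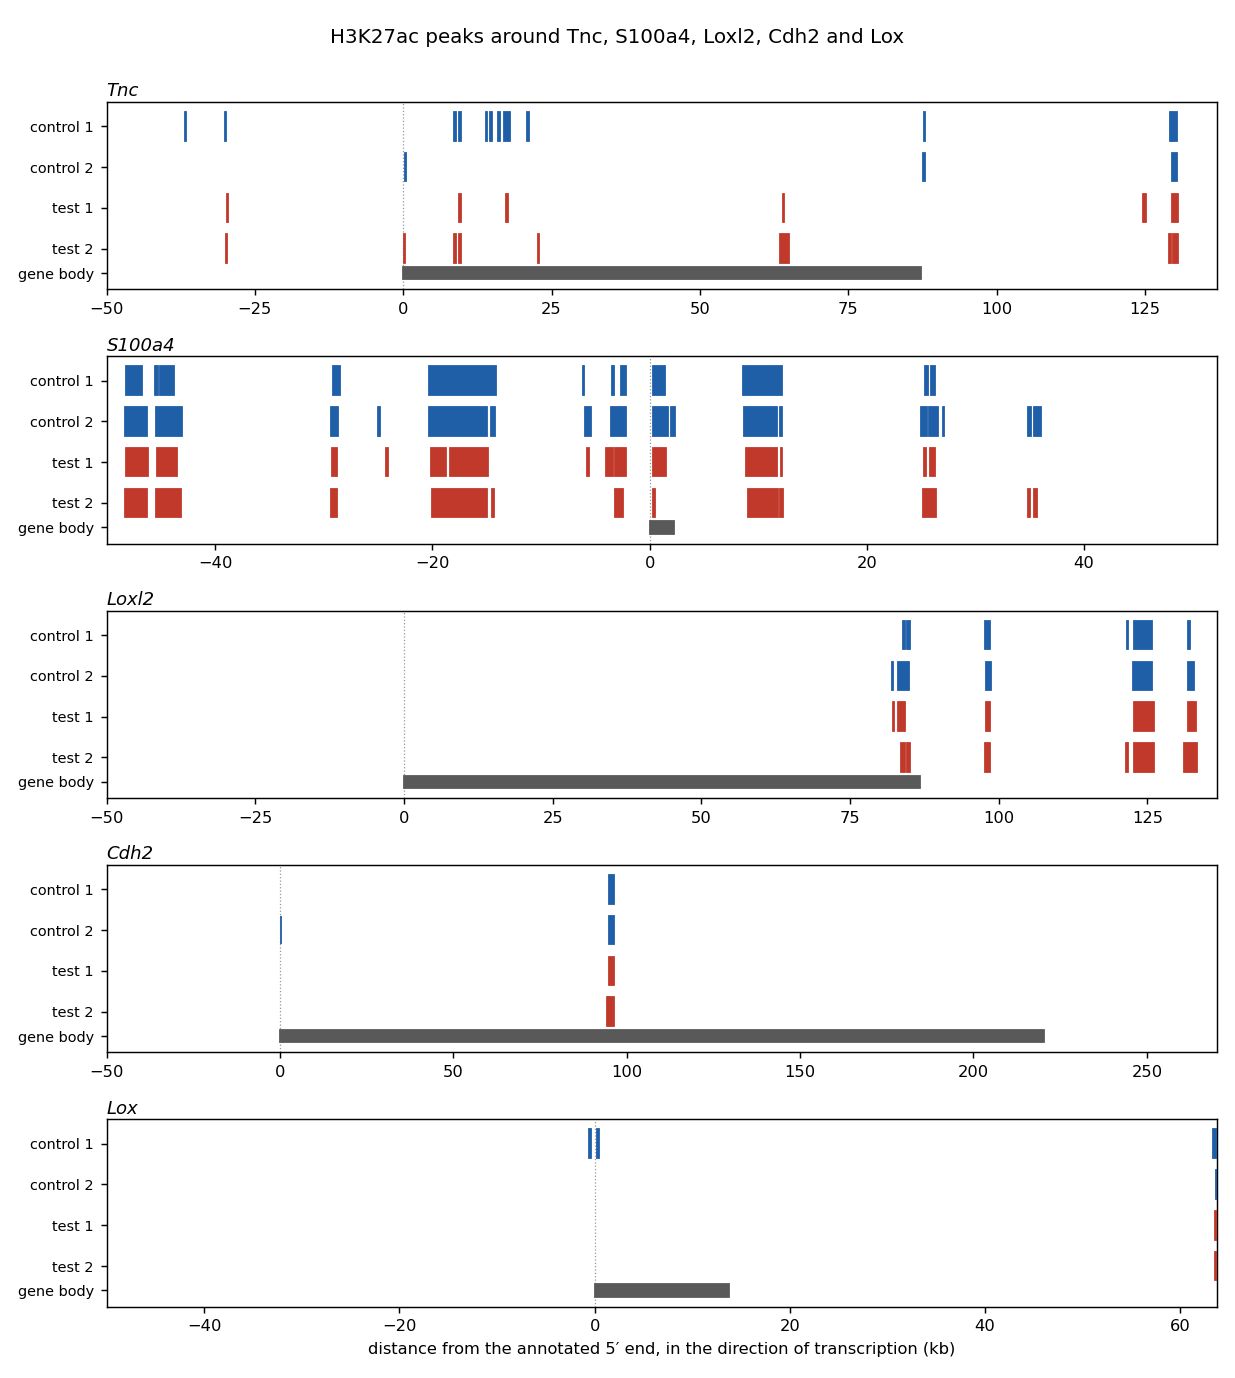
Deposited H3K27ac peaks in the windows of Tnc, S100a4, Loxl2, Cdh2 and Lox, by distance in kb from the annotated 5′ end in the direction of transcription, with 1 track per tumor (blue control, red test) and the gene body in grey; peaks narrower than the drawn outline appear at its width. The S100a4 window is filled by peaks at neighbouring S100 genes, Loxl2 has no peak near its start, and Cdh2 has 1 intronic region at 95.6 kb in all 4 tumors.

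Ordered by window coverage averaged within the control tumors, S100a4 (17.7%), Srgn (11.5%), Vim (8.19%) and Cd44 (6.34%) stood above Loxl2 (3.26%), Fn1 (2.08%), Tnc (1.48%), Cdh2 (0.469%) and Lox (0.446%). In the test tumors the order of the first 2 was the same, at 15.6% and 7.47%, but Vim (5.58%) and Cd44 (5.41%) differed by less than the SD of Vim. Fn1 and Tnc differed by less than the SD of either gene in both groups. As a description over 4 tumors, the gene whose window coverage was most like that of each member among 69 genes of the lists below was taken by the mean absolute difference. For Vim this was Has1, a hyaluronan synthase gene, at 0.789 percentage points, and for Srgn it was Acta2, smooth muscle actin, at 1.29 points. For Cd44 it was Itgb1, an integrin chain, at 0.507 points, and Itga9, an integrin chain that binds tenascin C, was nearest to both Tnc (0.629 points) and Fn1 (0.664 points). The remaining pairs were Cdh2 with Col3a1 (0.111), S100a4 with Smad3 (1.72), Lox with Twist2 (0.183) and Loxl2 with Dsp (0.443). The measure compares levels of coverage and not the order of the tumors. Has1 overlapped between the groups, unlike Vim. Itga9 was higher in control 2 than in control 1, and Tnc and Fn1 were the reverse.

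Other genes of the transition were read from lists of named genes. Among 10 EMT transcription factors, window coverage was higher in both control tumors for 2 and in both test tumors for none, against 13.0% and 17.3% of all genes with coverage. They were Prrx1, a homeobox factor of mesenchyme, at 10.1% and 10.6% against 3.95% and 2.12%, and Zeb2, a repressor of E-cadherin, at 6.86% and 5.29% against 4.57% and 3.27%. Near the starts 3 of the 8 covered factors were higher in both control tumors and none in both test tumors, against 11.3% and 21.3% of all covered genes. The additional factor there was Zeb1, at 8.11% and 14.9% against 6.90% and 0%, named after its values were seen. In the TGF-beta axis (9 genes) the calls went both ways. The feedback inhibitor Smad7 was higher in both control tumors (18.1% and 21.6% against 13.8% and 10.0%), and the signal transducer Smad2 was higher in both test tumors (0.664% and 0.896% against 0.960% and 1.32%).

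Of 21 other mesenchymal and matrix genes with coverage, 9 were higher in both control tumors and none in both test tumors, with a median difference of -0.761 points (all genes with coverage 13.0% and 17.3%, median 0.0192 points). Sparc, a collagen-binding matrix protein, stood at 15.1% and 16.4% against 12.3% and 8.79%. Acta2 stood at 13.0% and 12.3% against 11.1% and 6.38%, and Lgals1, galectin 1, at 13.8% and 15.0% against 13.2% and 10.1%. Among 12 receptors and partners of the listed genes, 3 were higher in both control tumors and 1 in both test tumors, beside the same 13.0% and 17.3%. The fibronectin receptor chain Itga5 was covered at 1.75% and 2.39% against 1.51% and 0.491%, and the hyaluronan synthase Has2 at 1.26% and 1.79% against 1.04% and 0%. The integrin chain Itga8 was the other one higher in both control tumors. The integrin chain Itgav showed the opposite order, at 3.63% and 3.89% against 5.00% and 4.74%. On the epithelial side (17 genes), 1 gene was higher in both control tumors and 4 in both test tumors, with a median difference of 0.8003 points, and these counts lie near the shares over all genes (13.0% and 17.3%). Esrp1, an epithelial splicing regulator, stood at 15.97% and 16.4% against 22.6% and 17.2%, and Epcam, an epithelial adhesion molecule, at 19.4% and 17.4% against 19.6% in each test tumor. Ocln and Dsp, genes for a tight junction and a desmosome protein, were the others higher in both test tumors. Ovol1, a repressor of the transition, was the one higher in both control tumors (10.4% and 12.3% against 10.2% and 9.24%). Near the starts, 2 of the 17 epithelial genes were higher in both control tumors and 6 in both test tumors, beside 11.3% and 21.3% of all covered genes.

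**Figure D5:**
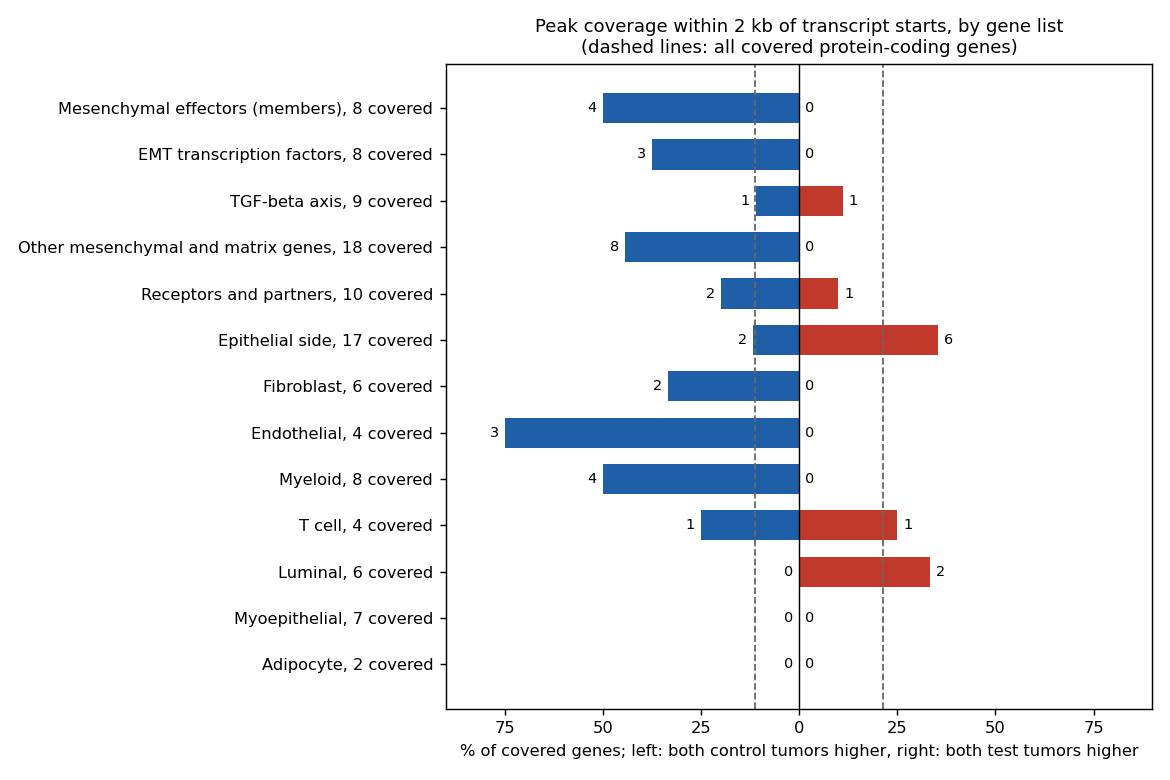
Share of the genes of each list, in percent of those with any peak bases within 2 kb of a transcript start, whose coverage there was higher in both control tumors (blue, to the left) or in both test tumors (red, to the right), with the number of genes at the bar ends. Dashed lines mark the shares over all covered protein-coding genes (11.3% and 21.3%). The bar is longer on the left for the 8 covered effectors, the EMT transcription factors, the other matrix genes and the receptors and partners. It is also longer on the left for the fibroblast, endothelial and myeloid markers. It is longer on the right for the epithelial side and the luminal markers, and the other lists are even or at 0.

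Some markers of fibroblasts, endothelial cells and myeloid cells had the same order as Vim, Fn1, Cd44 and Srgn. Near their starts, 2 of the 6 covered fibroblast markers, 3 of the 4 covered endothelial markers and 4 of the 8 covered myeloid markers were higher in both control tumors, and none of these was higher in both test tumors, where all covered genes gave 11.3% and 21.3%. By window, 3 of 8 fibroblast, 4 of 8 endothelial and 4 of 9 myeloid markers with coverage were higher in both control tumors, and 1 fibroblast marker was higher in both test tumors, beside 13.0% and 17.3% of all genes. That one was Fap, a fibroblast protease, at 2.23% and 1.15% against 2.59% and 2.24%. The mean coverage near the starts of the 9 myeloid markers was 25.1% and 24.6% in the control tumors against 19.2% and 11.6% in the test tumors. For the 8 endothelial markers it was 8.26% and 7.11% against 5.98% and 2.88%, and for the 9 fibroblast markers 5.08% and 6.36% against 3.41% and 1.24%. Of the 9 fibroblast markers, 4, 3, 6 and 7 had no start coverage in control 1, control 2, test 1 and test 2. For the 8 endothelial markers these counts were 4, 4, 4 and 7, and for the 9 myeloid markers 1, 3, 3 and 5. The marker lists were not rerun with equal peak numbers, so how far their order rests on test 2 was not tested. Some defining markers had no start coverage in any tumor, namely Adgre1 for myeloid cells, Kdr, Tek, Tie1 and Vwf for endothelial cells, and Lum, Fap and Thy1 for fibroblasts.
Spi1, the myeloid transcription factor, had 59.7% and 55.1% of the bases near its starts in peaks in the control tumors against 37.4% and 20.5% in the test tumors. Near the starts, Dcn, a fibroblast proteoglycan, had 6.79% and 12.2% against 0% in both test tumors. Dcn and Col1a2, the 2 fibroblast markers higher in both control tumors near the starts, are also counted among the matrix genes above. Acta2 likewise stands in both the matrix and the myoepithelial list. The part of these cell types in the values for Vim, Srgn, Fn1 and Cd44 was not tested. The 7 T cell markers went both ways. Near starts, 1 of 4 covered was higher in each direction. By window, 2 of 7 were higher in both control tumors and 3, Cd3e, Cd3d and Cd4, in both test tumors, beside 13.0% and 17.3% of all genes. However, Cd3e, Cd4 and Cd2 had no start coverage in any tumor, and Cd3d had it in control 2 alone (1.94%). The 4 B cell markers had no start coverage in any tumor, in the Rag1KO hosts. The luminal markers, which define the epithelium of these tumors, had mean start coverage of 68.3% and 65.0% against 69.9% and 68.6%, with Foxa1 alone at 0. Of the 7 myoepithelial markers, 3 were higher in both control tumors by window and none differed in order near the starts, and of the 5 adipocyte markers 1 was higher in both control tumors by window, where all genes gave 13.0%.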

How the data were processed

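H3K27ac ChIP-seq was performed by the authors on pieces of frozen breast tumor, 2 control and 2 test tumors from separate mice, each with a matched input. Reads were aligned to mm10 with BWA and peaks were called in each tumor separately with MACS2 against its input, and no replicates were pooled. The deposited lists give a chromosome, start and end for each peak in base pairs (unit: other, genome positions), with no score, signal or count, and their names say that peaks were cleaned and merged; what the cleaning removed is not given in the sources used here. Groups follow the genotype in the labels, and tumor numbers only name a tumor.

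Peaks were intersected with GENCODE M21 genes (at least 1 bp of overlap) in Python 3.11.15 with numpy 2.4.6. Windows were the gene body plus 50 kb, promoters were 1 kb around the annotated 5′ end, and start coverage was taken within 2 kb of any annotated start. Overlapping peaks of the 4 lists were joined into union regions. Groups were compared by the exact two-sided permutation test over tumors (scipy 1.17.1; 6 assignments). The interval code was tested on simulated data. Background shares were computed over all protein-coding genes or all regions. The genes named outside the members were the 3 of each list with the widest window difference among those whose groups did not overlap. Zeb1, Loxl1, Loxl3, Loxl4, Cdh1, Ocln, Dsp, Itga8 and the cell type markers named were chosen after their values were seen. The members, lists and measures were chosen with earlier results of these data known. Alternatives were other flanks, wider peaks, equal peak numbers, joined peaks, other genes left out and each tumor left out.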

Additional observations from a re-analysis of the deposited data

How the results depend on the processing

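The summed coverage difference of the 9 windows (-10.9 kb, test minus control) kept its sign in each alternative with all 4 tumors. It was -6.41 kb with other protein-coding genes left out, -6.88 kb with a 10 kb flank and -13.6 kb with a 100 kb flank. With peaks at least 1 kb wide it was -3.92 kb, and with the 59762 widest peaks of each tumor -9.26 kb. Leaving out 1 tumor gave -12.3 to -9.56 kb, where the sign could not change because both control totals exceeded both test totals. The 9 control-only regions became 5 with other genes left out, 5 with a 10 kb flank, 14 with a 100 kb flank, 0 with peaks at least 1 kb wide, 4 with peaks within 1 kb joined, 3 with equal peak numbers, and 12 to 28 leaving out 1 tumor, which loosens the definition by construction. The test-only region became 2 with a 100 kb flank, 0 with peaks at least 1 kb wide and 0 with equal peak numbers, and 1 to 11 leaving out 1 tumor. Genes with higher window coverage in both control tumors (2) numbered 4 with a 100 kb flank, 1 with peaks at least 1 kb wide, and 3 to 6 leaving out 1 tumor, and those higher in both test tumors (1) numbered 1 to 3. Near starts, where all alternatives were chosen after seeing the data, the 4 genes became 2 within 1 kb, 3 with peaks at least 1 kb wide (Fn1 lost), 3 at the annotated 5′ end alone (Srgn lost), and 4 to 6 leaving out 1 tumor. Leaving out a tumor cannot lower this count or the window counts of genes. Each counted gene already had both tumors of 1 group above both of the other. The window differences of 4 genes changed sign: Fn1 to 0.660 points with peaks at least 1 kb wide, 0.524 without control 1 and 0.498 without test 1 (range leaving out 1 tumor -0.825 to 0.524), Lox to 0.0861 without control 1 (range -0.487 to 0.0861), Loxl2 to -0.226 with a 10 kb flank, and Tnc to -0.542 without control 2 and -0.148 without test 2 (range -0.542 to 1.08). The cause was not tested. The promoter count (3) stayed between 2 and 4. No paired analysis was possible because the labels give the tumors no shared replicate numbers. Read depth is unknown, so a missing peak may be a peak below detection.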
